A study of Homo sapiens with 6 samples.

Results

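The integrated stress response and amino acid supply genes are a list of 33 genes that act upstream of, within or downstream of the transcription factor ATF4. They were chosen by symbol, as the rows of the expression table whose name equals one of the 33. All 33 were found among its 20035 genes, and 32 of them had enough counts to be tested, of 12356 tested in all. RNA came from HaCaT cells, an immortalized line of human skin keratinocytes labelled wild type, in 2 groups of 3 libraries each. The palmatine group was treated with palmatine, a plant alkaloid of the protoberberine class. The control group carries the treatment label none. The series describes IL-17 stimulation, a cytokine treatment used to model psoriasis in culture, but the sample labels do not say which libraries received it. If the controls received no IL-17, palmatine and IL-17 cannot be told apart. The labels give neither dose nor time, and all libraries come from 1 line.

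In the integrated stress response, kinases that sense amino acid shortage, unfolded protein, viral RNA or haem deficiency phosphorylate the translation factor eIF2. Protein synthesis then slows, while the ATF4 mRNA, whose upstream reading frames normally hold translation back, is translated more. ATF4 pairs with C/EBP proteins on a composite DNA element and raises genes for amino acid uptake, for serine, glycine and one-carbon synthesis, and for the feedback regulators that end the response. ATF4 activity is therefore set largely at translation, which transcript levels do not measure.

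The ATF4-C/EBP composite element was searched for as TGATGNAA, and its reverse complement TTNCATCA, in RefSeq promoters of GRCh38.p14, which run from 250 bases before to 50 bases after each transcript start. Promoters were present for 28 of the 33 members, with 43 starts in all. The motif was found at 9 of these 43 starts (20.9%), against 3.62% of all 35116 promoters in the table. The stricter form TGATGCAA, with its reverse complement TTGCATCA, is one case of the looser form and was found at 5 member starts (11.6%), against 0.866% of all. The 9 genes with a match were SLC3A2, CHAC1, SLC7A1, JDP2, CEBPG, SLC1A5, SLC1A4, ATF3 and ASNS. Shown are the 4 of them with the smallest p in the comparison below, with the match in capitals. ASNS was added after its values were seen, because its promoter holds the motif while its transcript was near the limit of detection.
SLC3A2, chr11:62881449-62881748, plus strand: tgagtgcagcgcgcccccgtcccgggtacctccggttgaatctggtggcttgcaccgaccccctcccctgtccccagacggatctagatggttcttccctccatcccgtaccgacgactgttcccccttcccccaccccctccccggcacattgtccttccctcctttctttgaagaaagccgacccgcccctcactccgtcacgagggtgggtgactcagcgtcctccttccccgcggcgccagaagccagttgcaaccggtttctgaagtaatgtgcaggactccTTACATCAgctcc
CHAC1, chr15:40953221-40953520, plus strand: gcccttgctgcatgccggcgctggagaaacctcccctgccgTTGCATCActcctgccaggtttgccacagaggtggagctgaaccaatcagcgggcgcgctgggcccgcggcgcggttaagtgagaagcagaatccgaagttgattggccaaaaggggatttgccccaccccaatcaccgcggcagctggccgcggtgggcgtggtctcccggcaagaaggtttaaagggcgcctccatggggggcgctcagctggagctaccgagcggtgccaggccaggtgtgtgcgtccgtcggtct
SLC7A1, chr13:29595639-29595938, minus strand: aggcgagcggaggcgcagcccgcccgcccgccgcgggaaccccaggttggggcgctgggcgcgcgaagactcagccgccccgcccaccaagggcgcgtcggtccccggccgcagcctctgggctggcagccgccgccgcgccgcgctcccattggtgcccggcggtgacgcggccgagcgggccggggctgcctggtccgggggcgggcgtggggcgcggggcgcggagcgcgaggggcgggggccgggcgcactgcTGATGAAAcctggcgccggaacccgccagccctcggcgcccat
JDP2, chr14:75427772-75428071, plus strand: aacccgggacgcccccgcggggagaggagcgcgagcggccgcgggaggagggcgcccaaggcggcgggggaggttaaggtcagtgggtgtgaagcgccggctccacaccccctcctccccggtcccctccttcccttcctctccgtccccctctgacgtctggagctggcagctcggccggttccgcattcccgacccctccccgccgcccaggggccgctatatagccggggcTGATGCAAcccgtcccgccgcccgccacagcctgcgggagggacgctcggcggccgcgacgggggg
ASNS, chr7:97872359-97872658, minus strand: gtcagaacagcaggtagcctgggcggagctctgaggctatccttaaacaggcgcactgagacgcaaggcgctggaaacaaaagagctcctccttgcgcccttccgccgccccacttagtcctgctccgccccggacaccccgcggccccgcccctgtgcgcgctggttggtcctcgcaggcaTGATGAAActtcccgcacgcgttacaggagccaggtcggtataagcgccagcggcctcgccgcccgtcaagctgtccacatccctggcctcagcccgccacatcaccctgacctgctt
Counted from the transcript start, with the first transcribed base as 1, the match begins at position 38 in SLC3A2, -209 in CHAC1, 8 in SLC7A1, -16 in JDP2 and -68 in ASNS. In SLC3A2 and CHAC1 it lies on the strand opposite to the gene. A match describes the letters in the window and is not a measurement of binding. The 9 members with a match had a median log2 fold change (palmatine over control) of -0.07, and the 19 other members with a promoter entry one of -0.12.

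Levels are compared between genes as FPKM, which divides the count by gene length and by the library total. The mean over all 6 libraries was above 100 FPKM for 6 members and below 1 FPKM for 4. SLC7A5, the light chain of the large neutral amino acid transporter LAT1, had the highest level, at 328 ± 24.3 FPKM in palmatine and 319 ± 37.9 FPKM in control cells (SD, n = 3 each). Its heavy chain SLC3A2, which carries several light chains to the cell surface, was at 102 ± 4.70 FPKM in palmatine and 114 ± 3.11 FPKM in control cells (SD, n = 3 each). ATF4 itself was the third most abundant member, at 139 ± 10.6 FPKM in palmatine and 154 ± 11.8 FPKM in control cells (SD, n = 3 each). PSAT1, DDIT4 and SLC38A2 were the other members above 100 FPKM. Pseudogenes are named in GENCODE release 29 for 7 members, among them ATF4, PSAT1 and SLC7A5, and exons of 13 members overlap another gene, so the levels of these members may include or lack shared reads.

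ASNS, which makes asparagine and is one of the best-known ATF4 targets, was at the low end although ATF4 was abundant. Its counts were 17, 16 and 18 in the palmatine libraries and 15, 16 and 12 in the control libraries. This is 0.217 ± 0.0159 FPKM in palmatine and 0.210 ± 0.0213 FPKM in control cells (SD, n = 3 each). In GENCODE release 29, 44.6% of the exon bases of ASNS also belong to another gene on the same strand, AC079781.5, and 4 ASNS pseudogenes are named. AC079781.5 is not among the genes of the expression table. No source used here says how reads in such shared stretches were counted, so the low ASNS value is uncertain. NUPR1, a small chromatin-associated stress protein, had 3, 3 and 1 counts in palmatine and 2, 2 and 3 in control libraries. NUPR1 was therefore the 1 member without a test, and its counts were too few to compare. The remaining members below 1 FPKM were ALDH1L2, a mitochondrial folate enzyme, and VLDLR, a lipoprotein receptor.

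**Figure D1:**
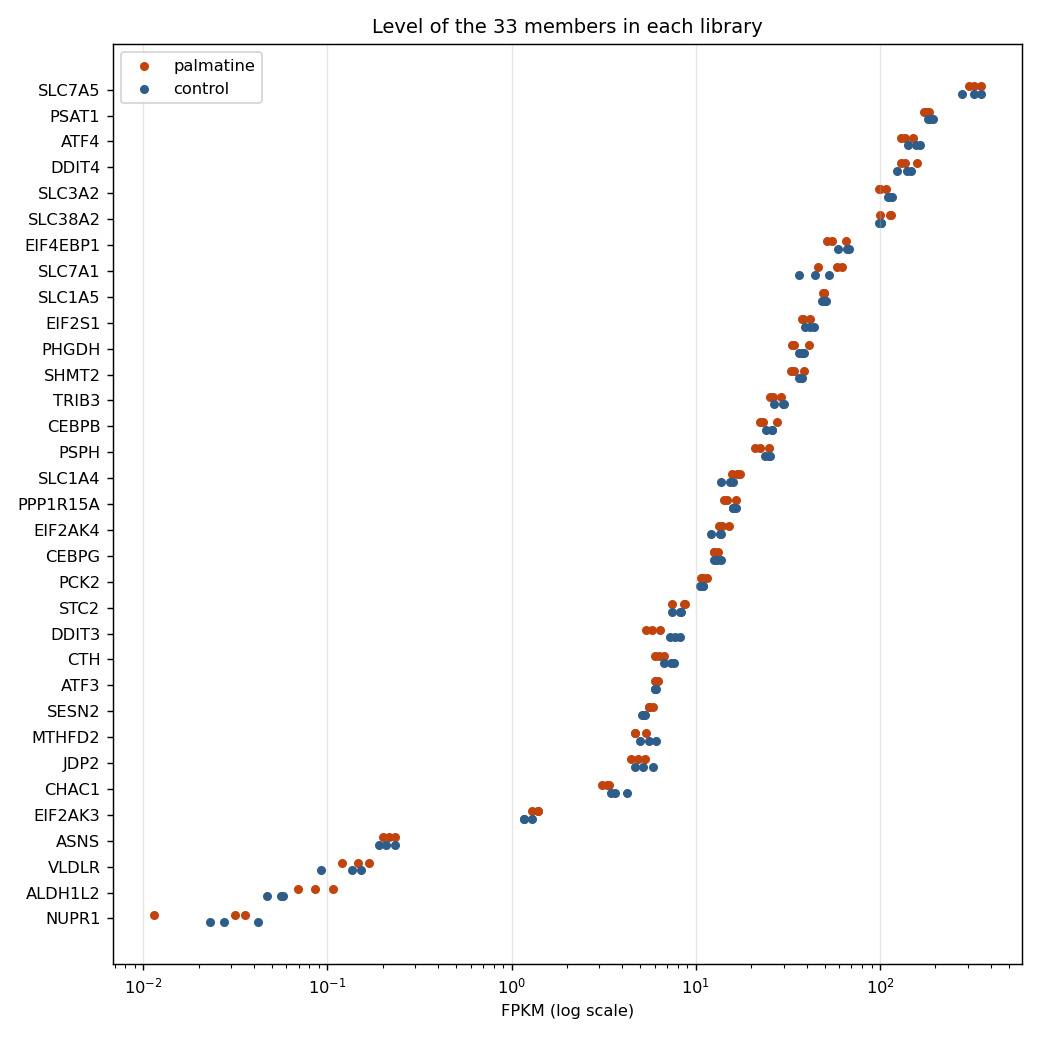
FPKM (log scale) of each of the 33 members, ordered by mean level, with 1 point per palmatine library (upper row of each gene) and 1 per control library (lower row). SLC7A5 is at the top near 328 FPKM in palmatine, while ASNS, VLDLR, ALDH1L2 and NUPR1 lie below 1 FPKM in both groups.

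Palmatine was set against control to see which stress response transcripts differ. No member passed the threshold of an adjusted p of 0.05 in the edgeR quasi-likelihood test, with Benjamini-Hochberg adjustment over all 12356 genes. Over all tested genes, 0.0% were called higher in palmatine and 0.0405% (5 genes) lower, so that 0 calls among 32 members is near the background. The smallest adjusted p of any member was 0.455 in edgeR, and the smallest under any alternative setting was 0.131. DESeq2 and limma-voom also called 0 members. DESeq2 put 4 of 33 members lower at an unadjusted p under 0.05 (background 3.03%), and limma-voom 5 of 32 (background 4.96%). Neither put a member higher at that threshold. At an unadjusted p under 0.05, 6 members lay on the lower side (18.8%), namely DDIT3, SLC3A2, CTH, ATF4, MTHFD2 and CHAC1, and 0 on the higher side. The background for the same rule was 4.69% of tested genes on the lower and 5.13% on the higher side. The count of 6 moved with single libraries, and so did the share over all genes. It was 1 of 32 members without palmatine replicate 1 (background 1.04% of all tested genes) and 1 of 32 without palmatine replicate 3 (1.32%). Without palmatine replicate 2 it was 14 of 32 (13.5%). It was 7 of 32 without control replicate 1 (10.2%), 2 of 32 without control replicate 2 (2.06%) and 3 of 32 without control replicate 3 (1.33%). Each count is out of the 32 tested members, while each percentage is a share of all tested genes. DDIT3 was among the counted members in each of these fits. For 29 of the 32 tested members the 95% interval of the fold change lay within 1.5-fold in either direction (background 79.4%), and for 31 it lay within 2-fold.

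Members leaned to the negative side, and gene length moved with that lean. The log2 fold change (palmatine over control) was negative for 24 of 32 tested members, against 50.4% of all tested genes, and its median was -0.11, against -0.0018 over all tested genes. The members were short: their median length was 4384.5 bases as deposited, against 5480 for all tested genes. The fold changes followed length over all 12356 tested genes (Spearman correlation 0.443) and over the 32 tested members (0.576), as descriptions across genes that share the same libraries. Of 21 members shorter than 5480 bases, 20 had a negative value, against 67.0% of all tested genes that short. Of 11 longer tested members, 4 had a negative value (36.4%), against 33.7% of all longer tested genes. With the length trend of each library removed, the median of the members was -0.03, against -0.02 over all genes, and 3 members (DDIT3, MTHFD2 and SLC3A2) stayed at an unadjusted p under 0.05 on the lower side, which is 9.38% against a background of 6.0%. The sign count was again 24 negative and 8 positive, where 6761 of 12356 tested genes were negative. With library size alone it was 18 negative and 14 positive, with a median of -0.05, but that scaling moved the median of all genes to 0.06. What part length has in these values was not tested.

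**Figure D2:**
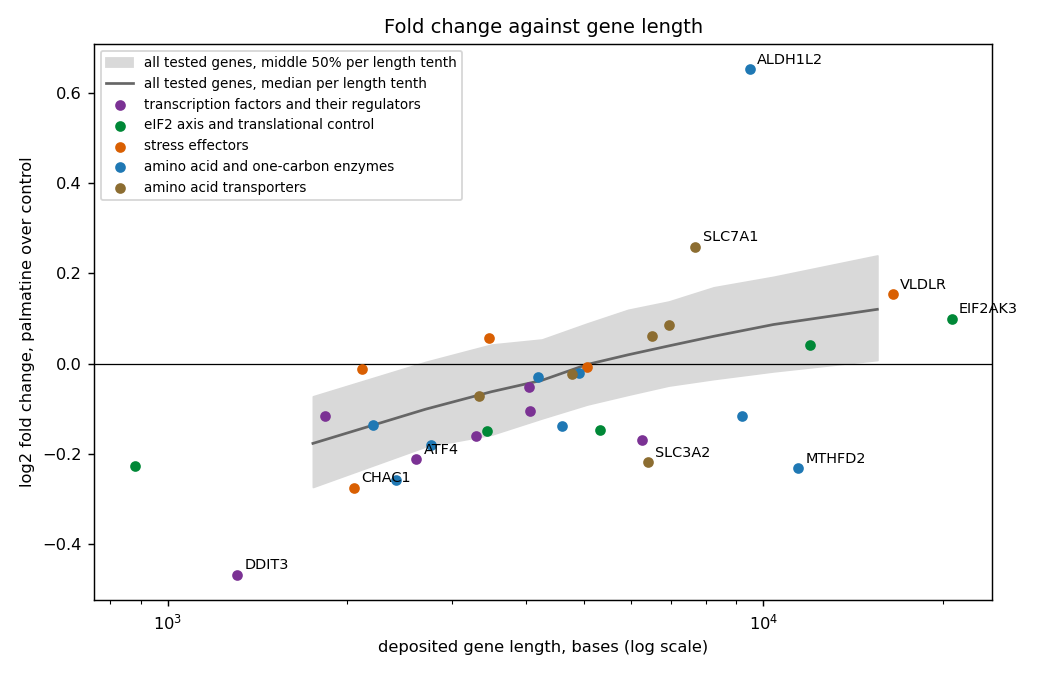
Log2 fold change (palmatine over control) of the 32 tested members, coloured by role, against the deposited gene length in bases (log scale). The grey line and band give the median and middle 50% of all tested genes in bins of equal gene number by length. Most members lie near or below the line, DDIT3 at -0.47 and MTHFD2 at -0.23 among the farthest below it, and ALDH1L2 at 0.65 and SLC7A1 at 0.26 above it.

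Among the transcription factors and their regulators, 7 of 7 tested members had negative values, with a median of -0.16, and 0 were called. DDIT3, which encodes CHOP, the ATF4-induced factor that is tied to cell death under lasting stress, had the largest shift of this group. It stood at 7.28, 8.22 and 6.93 CPM (counts scaled to TMM-adjusted library sizes) in the palmatine libraries, against 9.62, 10.3 and 11.1 CPM in the control libraries. All 3 palmatine values lay below all 3 control values. The log2 fold change was -0.47 ± 0.116 (SE), with a 95% interval from -0.73 to -0.21, an unadjusted p of 0.00265 and an adjusted p of 0.455 in edgeR. DDIT3 is a short gene (1307 bases) on chromosome 12, positions 57516588 to 57521737, minus strand, and with the length trend removed its value was -0.29. In GENCODE release 29 its exons overlap MARS1, the methionyl-tRNA synthetase gene, AC022506.1 and MBD6. Of its exon bases 31.6% are shared with genes on the opposite strand, and 8.03% with a gene on the same strand, so its counts may hold reads of these genes. The log2 fold change of MARS1 was -0.06, with an adjusted p of 0.655 in edgeR.

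ATF4 (chromosome 22, positions 39519695 to 39522683) was at 329.2, 390.3 and 349.8 CPM in the palmatine libraries, against 375.4, 419.3 and 443.5 CPM in the control libraries. The groups overlapped, since palmatine replicate 2 lay above control replicate 1. The log2 fold change was -0.21 ± 0.0890 (SE; adjusted p = 0.455 in edgeR), and -0.13 with the length trend removed. ATF3, an early stress-induced factor that ATF4 drives, had the lowest biological coefficient of variation of the members, 5.49%. It was at 24.31, 24.07 and 24.04 CPM in palmatine, against 24.71, 24.92 and 25.49 CPM in control libraries. These groups did not overlap, but the log2 fold change was only -0.05 (adjusted p = 0.750 in edgeR). With library size alone it was 0.01, where the median of all genes was 0.06. TRIB3, a pseudokinase that restrains ATF4, was at 82.8, 94.9 and 82.4 CPM in palmatine, against 88.4, 101 and 101 CPM in control libraries, and the groups overlapped. On the log2 scale the difference for TRIB3 was -0.16 (adjusted p = 0.455 in edgeR). The bZIP partners CEBPG and CEBPB had log2 fold changes of -0.10 and -0.12, and JDP2, a repressor of the AP-1 family, one of -0.17. The sign for CEBPB was positive, at 0.01, once the length trend was removed.

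The upstream eIF2 axis showed 3 negative and 2 positive values among 5 members, and no unadjusted p under 0.05. EIF2AK3 encodes PERK, the kinase that responds to unfolded protein in the endoplasmic reticulum, and EIF2AK4 encodes GCN2, which responds to uncharged tRNA. Their log2 fold changes were 0.10 and 0.04, with 95% intervals from -0.08 to 0.28 and from -0.12 to 0.21. Both signs were negative with the length trend removed, at -0.04 and -0.06. For EIF2AK3 this used a deposited length of 20691 bases, against 5434 exon bases in GENCODE release 29. EIF2S1, the eIF2 subunit that these kinases phosphorylate, had a log2 fold change of -0.15. PPP1R15A encodes GADD34, which brings a phosphatase to eIF2 and so ends the response. It was at 48.9, 56.23 and 47.95 CPM in palmatine, against 57.7, 55.6 and 56.5 CPM in control libraries, with palmatine replicate 2 inside the control range. Its log2 fold change was -0.15 (adjusted p = 0.457 in edgeR). EIF4EBP1, an inhibitor of cap-dependent translation and the shortest member at 880 bases, was at 44.0, 57.2 and 47.8 CPM in palmatine, against 52.7, 59.7 and 61.6 CPM in control libraries. Palmatine replicate 2 lay inside the control range again. Its log2 fold change of -0.23 was -0.0057 with the length trend removed.

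Stress effectors went both ways, with 3 negative and 2 positive values. CHAC1, an enzyme that degrades glutathione, was at 6.67, 6.72 and 6.24 CPM in palmatine, against 8.78, 7.29 and 7.75 CPM in control libraries, and the groups did not overlap. For CHAC1 the log2 fold change was -0.28 ± 0.119 (SE; adjusted p = 0.455 in edgeR), and -0.16 with the length trend removed. CHAC1 lies on chromosome 15, positions 40952962 to 40956512, and had 97 to 119 counts per library. SESN2, a leucine sensor that restrains mTORC1, was at 18.6, 20.03 and 19.04 CPM in palmatine, against 18.4, 18.67 and 18.3 CPM in control libraries, and the groups overlapped. Its log2 fold change was 0.06, with a 95% interval from -0.13 to 0.24. DDIT4, a stress-induced inhibitor of mTORC1, and STC2, a secreted glycoprotein, had log2 fold changes of -0.01 and -0.0083. Their 95% intervals ran from -0.24 to 0.22 for DDIT4 and from -0.21 to 0.19 for STC2. VLDLR had a log2 fold change of 0.15 with the wide 95% interval from -0.37 to 0.68, on 24 to 48 counts per library.

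**Figure D3:**
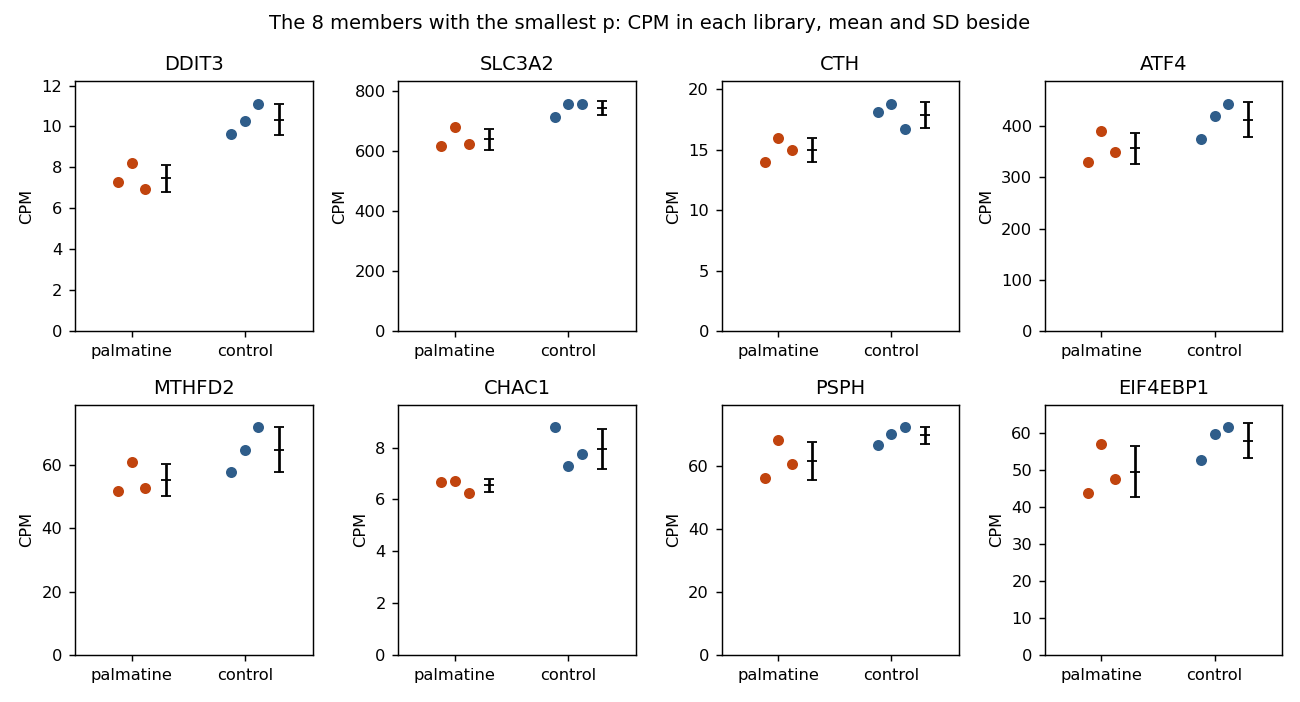
CPM in each library for the 8 members with the smallest p in edgeR, palmatine left and control right, with the mean and SD (n = 3) beside the points. DDIT3, SLC3A2, CTH and CHAC1 have all palmatine points below all control points, while ATF4, MTHFD2, PSPH and EIF4EBP1 overlap through palmatine replicate 2.

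Of the amino acid and one-carbon enzymes, 8 of 9 had negative values, with a median of -0.14, and -0.11 with the length trend removed. CTH, which makes cysteine from cystathionine, was at 13.95, 15.98 and 14.99 CPM in palmatine, against 18.09, 18.8 and 16.7 CPM in control libraries. The groups did not overlap. Its log2 fold change was -0.26 ± 0.0957 (SE; adjusted p = 0.455 in edgeR), and -0.17 with the length trend removed. MTHFD2, a mitochondrial folate enzyme raised in proliferating cells, was at 51.9, 61.0 and 52.8 CPM in palmatine, against 57.7, 64.9 and 71.8 CPM in control libraries, and the groups overlapped. Its log2 fold change of -0.23 ± 0.0996 (SE; adjusted p = 0.455 in edgeR) was -0.33 with the length trend removed, for a deposited length of 11443 bases. GENCODE release 29 gives MTHFD2 only 4870 exon bases, and its value at that length was not tested. Its exons overlap other genes on the opposite strand over 33.2% of their bases in GENCODE release 29, and 7 pseudogenes are named.

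All 4 enzymes of serine synthesis and use had negative values, and none passed the test. PHGDH, PSAT1 and PSPH catalyse the pathway from a glycolytic intermediate to serine, and SHMT2 then splits serine into glycine and a one-carbon unit. Their log2 fold changes were -0.12 for PHGDH, -0.14 for PSAT1, -0.18 for PSPH and -0.14 for SHMT2, with adjusted p of 0.561, 0.455, 0.455 and 0.463 in edgeR. PSAT1 was at 378.0, 400.8 and 377.9 CPM in palmatine, against 408.6, 421.4 and 440.5 CPM in control libraries, without overlap. PSPH was at 56.2, 68.3 and 60.6 CPM in palmatine, against 66.9, 70.3 and 72.4 CPM in control libraries, with overlap. With the length trend removed the values were -0.19 for PHGDH, -0.03 for PSAT1, -0.11 for PSPH and -0.13 for SHMT2. PCK2, the mitochondrial form of phosphoenolpyruvate carboxykinase, had a log2 fold change of -0.03, and ASNS one of -0.02 with a 95% interval from -0.58 to 0.54. ALDH1L2 was the only enzyme on the positive side, with 14, 10 and 16 counts in palmatine and 7, 7 and 7 in control libraries, a log2 fold change of 0.65 with a 95% interval from -0.10 to 1.41. It passed the filter on low counts only through the palmatine libraries, so its value had to be positive and supports nothing.

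Amino acid transporters were split, with 3 negative and 3 positive values and a median of 0.02, which was -0.0031 with the length trend removed. SLC3A2 (chromosome 11, positions 62856004 to 62888880) was at 616.1, 679.6 and 622.1 CPM in palmatine, against 715.1, 757.7 and 757.2 CPM in control libraries. All palmatine values lay below all control values. The log2 fold change was -0.22 ± 0.0721 (SE), with a 95% interval from -0.38 to -0.06, an unadjusted p of 0.0138 and an adjusted p of 0.455 in edgeR. Its value with the length trend removed was -0.26. Its partner SLC7A5 was at 1625, 1439 and 1524 CPM in palmatine, against 1708, 1585 and 1367 CPM in control libraries, and each group spanned much of the other. SLC7A5 had a log2 fold change of -0.02, with a 95% interval from -0.24 to 0.19. SLC7A11, which is no member and pairs with SLC3A2 to exchange cystine for glutamate, was at 187, 145 and 172 CPM in palmatine, against 180.3, 167 and 174 CPM in control libraries. SLC7A11 had a log2 fold change of -0.05.

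SLC7A1, the carrier of arginine and lysine, was the most variable tested member, with a biological coefficient of variation of 12.6% (median of the members 7.53%, of all tested genes 7.84%). It was at 463.6, 349.7 and 442.7 CPM in palmatine, against 410.3, 350.4 and 288.7 CPM in control libraries. The groups overlapped, with palmatine replicate 2 level with control replicate 2. On the log2 scale SLC7A1 differed by 0.26 ± 0.139 (SE; adjusted p = 0.455 in edgeR). The neutral amino acid carriers SLC1A4 and SLC38A2 had log2 fold changes of 0.09 and 0.06, and the glutamine carrier SLC1A5 one of -0.07.

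**Figure D4:**
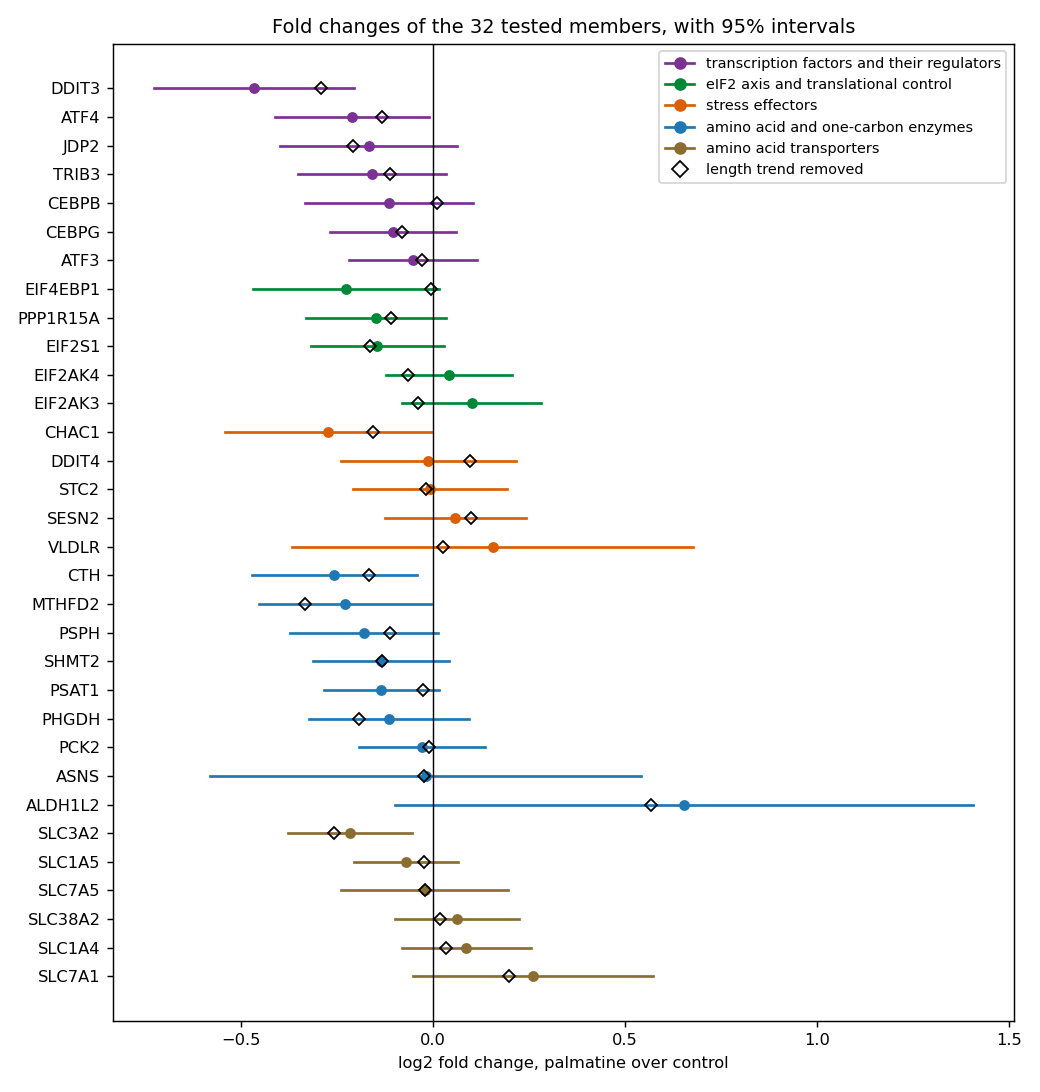
Log2 fold change (palmatine over control) with its 95% interval for the 32 tested members, grouped by role. Open diamonds give the value with the length trend removed. All 7 transcription factor points lie left of 0, the transporters lie on both sides, and none passed the threshold.

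Each palmatine library had a lower median over the members than each control library, with palmatine replicate 2 nearest to the controls. The median of the members' centred log2 CPM was -0.11, -0.0049 and -0.08 in palmatine replicates 1, 2 and 3, against 0.03, 0.05 and 0.07 in control replicates 1, 2 and 3. Palmatine replicate 2 had 16 of the 32 members above their own mean, against 9 and 11 in palmatine replicates 1 and 3. The control libraries had 20, 23 and 22 members above. The first principal component over all tested genes took 51.0% of the variance and placed palmatine replicate 2 at 4.55, on the side of control replicates 2 and 3 (10.58 and 23.99). Palmatine replicates 1 and 3 (-19.9 and -13.4) lay on the other side with control replicate 1 (-5.80). The part of this axis in the members' values was not tested. In bulk RNA, fewer cells of a type and less RNA per cell cannot be told apart. Of 32 tested members, 7 had all palmatine values below all control values, or 21.9% against a background of 5.71%. The 1 member with them above was ALDH1L2 (background 6.68%). It passed the count filter only through the palmatine libraries, so its place above supports nothing.

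**Figure D5:**
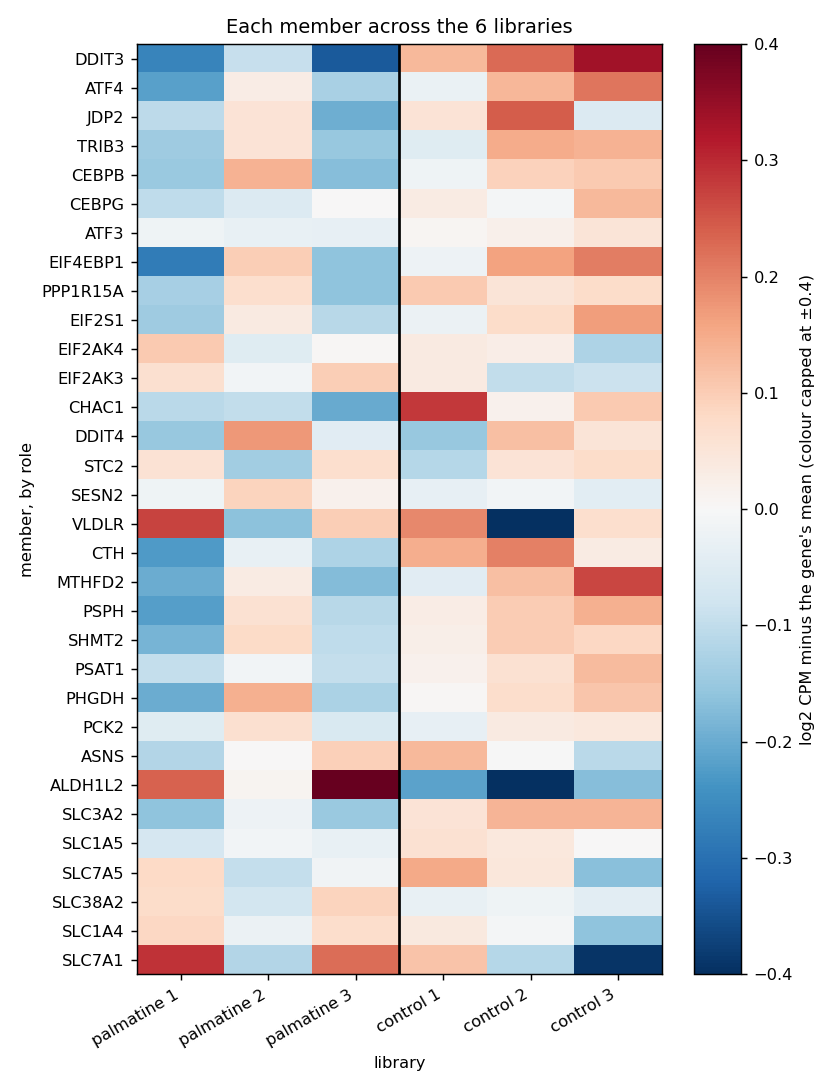
Log2 CPM of each tested member minus its own mean over the 6 libraries (colour, capped at ±0.4), palmatine libraries left of the line and control libraries right of it, members by role. Palmatine replicates 1 and 3 are mostly blue and control replicates 2 and 3 mostly red, while palmatine replicate 2 and control replicate 1 are mixed.

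Genes of the pathway outside the 33 gave no calls in any of 7 further lists. Of the 20 cytosolic aminoacyl-tRNA synthetases, which charge tRNAs and include several ATF4 targets, 16 had negative log2 fold changes, with a median of -0.09. On the lower side 1 was at an unadjusted p under 0.05 (RARS1 at -0.20, adjusted p = 0.455 in edgeR). That is 5.0%, near the background of 4.69%. In 7 of the 20 (35.0%, background 5.71%) every palmatine library was below every control library, among them CARS1 at -0.17 and FARSB at -0.16. The median length of the 20 synthetases was 6118 bases. With the length trend removed 18 of 20 were negative (6761 of 12356 tested genes), with a median of -0.11. Under that setting 7 of 20 were at an unadjusted p under 0.05 on the lower side (background 6.0%), against 1 without it. The 7 rest on the deposited lengths, such as 22418 bases for IARS1 and 20639 for LARS1. Those lengths were not compared with another annotation, and their part in the count was not tested. Of 13 translation initiation genes, which include subunits of eIF2 and its exchange factor eIF2B, 12 were negative, with a median of -0.08. The eIF2 subunit EIF2S2 was at -0.23, and the initiation factors MCTS1 and EIF2A, which are not eIF2 subunits, at -0.14 and -0.10. With the length trend removed the median of these 13 was -0.13. Other amino acid and folate enzymes gave 15 negative and 6 positive values, with AHCY of the methionine cycle at -0.24, ASS1 of arginine synthesis at -0.18 and PYCR1 of proline synthesis at -0.19.

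Other transporters lay mostly on the positive side, with 9 of 12 tested (of 17 listed) and a median of 0.09. SLC7A6 was at 0.18, SLC36A1 at 0.22 and SLC6A9 at 0.16. The median length of these transporters was 9234 bases, and their median log2 fold change was -0.02 with the length trend removed. Other partners and targets of ATF4 and CHOP gave 9 negative and 8 positive values. CEBPA, a C/EBP factor of keratinocyte differentiation, was at 1.232, 2.935 and 1.873 CPM in palmatine, against 3.464, 4.034 and 3.596 CPM in control libraries. These groups did not overlap, and its fold change was -0.90 on the log2 scale, with an edgeR adjusted p of 0.455. GADD45A, a stress-induced growth arrest gene, had a log2 fold change of -0.26 and ATF7 one of 0.36. Genes of amino acid sensing by mTORC1 and its output gave 10 negative and 15 positive values, with a median of 0.05. With the length trend removed they gave 12 negative and 13 positive values, with a median of 0.0005. Among them NPRL2 was at -0.30, the cap-binding protein EIF4E at -0.20 and CASTOR2, a relative of an arginine sensor, at 0.69. The kinases, activators and phosphatases of eIF2 gave 7 negative and 5 positive values, with PPP1CA at -0.18, the GCN2 activator GCN1 at 0.26 and EIF2AK2, the kinase PKR that senses double-stranded RNA, at 0.15.

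The libraries held 12908646 to 17218171 counts each. All 12 keratinocyte markers were expressed, with a summed level of 10970 to 11720 CPM in palmatine and 11110 to 11360 CPM in control libraries. The 8 fibroblast markers summed to 4.175 to 5.88 CPM in palmatine and 2.64 to 5.08 CPM in control libraries, with COL1A2 and THY1 at 0. The 7 melanocyte markers summed to 6.59 to 7.24 CPM in palmatine and 5.54 to 7.43 CPM in control libraries, with TYR and DCT at 0. The 8 immune markers summed to 18.2 to 20.6 CPM in palmatine and 21.2 to 24.85 CPM in control libraries, HLA-DRA being the highest, with CD3D and CD1A at 0. The 5 endothelial markers summed to 6.37 to 8.28 CPM in palmatine and 6.87 to 7.22 CPM in control libraries, with KDR at 0.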

How the data were processed

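Poly(A) RNA of HaCaT cells was sequenced in 6 libraries, 3 per group, grouped by their labels. Read counts and FPKM for each gene stand side by side in the deposited table, per the file headers. The submitters' processing notes name HISAT2 2.1.0 and HTSeq 0.9.1. Genome build, annotation, strand setting and the handling of shared reads were not given in the sources used here. Deposited FPKM by the authors equalled the count divided by the deposited gene length and library total for 100% of values above 0 (relative tolerance 1e-05). GENCODE release 29 holds 19851 of the table's genes, 19832 of them at an overlapping locus on the same strand, so coordinates follow GRCh38.

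Genes were kept with filterByExpr (minimum count 10), scaled by TMM and compared by the quasi-likelihood test of edgeR 4.0.16 in R 4.3.3 with robust dispersions and no covariates. Two-sided p-values were adjusted over all tested genes by the Benjamini-Hochberg method (threshold 0.05). Standard errors and 95% intervals come from the quasi-likelihood statistic. Centred log2 CPM used a prior count of 2. The length trend was a loess fit (span 0.3) of centred log2 CPM on log2 deposited length in each library, entered as an offset. Whether the values change with other gene lengths was not tested.

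The members, the other lists, the tests and the alternatives were chosen with earlier results of these data known. The genes described in full are the 8 members with the smallest p and 10 genes fixed by name (ATF4, ATF3, DDIT3, ASNS, CHAC1, TRIB3, SESN2, PPP1R15A, SLC3A2 and SLC7A11). Up to 3 genes with the smallest p were named per further list. MARS1 and ASNS's promoter were added with values in view. Values in every library were also given, outside these rules, for PSAT1, SLC7A5, SLC7A1, ALDH1L2, NUPR1 and CEBPA. The alternatives were other scalings and count filters, DESeq2 1.42.0, limma 3.58.1 with voom or on log2 FPKM, a replicate block, the length trend and each library left out. No replicates agreed within sampling noise (chi-square over degrees of freedom 3.24 or more for each pair). Whether replicates were separate cultures is not in the labels, so p-values reflect only the spread of these libraries, possibly technical. One row of the table is not analysed here.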

Additional observations from a re-analysis of the deposited data

How the results depend on the processing

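No member was called in either direction under any of the 17 alternatives, and the lowest adjusted p of a member was 0.131. Over all genes, 0 were called higher under every alternative. The 5 called lower became 13 with DESeq2, 8 without the count filter, 9 with the replicate block and 8 with the length trend removed, and ran from 5 to 6 with one library left out. The deviations of same-numbered libraries from their group means correlated at 0.399, 0.178 and -0.0963, so the numbers were not taken as pairs. The replicate block called no member and put 8 members lower and 1 higher (SLC7A1) at an unadjusted p under 0.05, where 10% of all genes were lower and 10.3% higher; not every library correlated best with its own number. The members lower at an unadjusted p under 0.05 were 2 of 32 with library size alone (1.45% of all genes). They were 2 of 32 each with log2(FPKM + 1) and log2(FPKM + 0.1) (1.59% and 1.62%), and 3 of 32 with the length trend removed (6.0%). With 1 library left out they were 1 to 14 of 32 (1.04% to 13.5%). The higher ones were 0 to 1. The median of the members stayed negative in all of them, at -0.0462 with library size alone, -0.0459 and -0.0483 with FPKM pseudocounts of 1 and 0.1, -0.0346 with the length trend removed and -0.1353 to -0.0698 with one library left out. The filter of 1 CPM in every library removed ASNS and ALDH1L2.

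Library size alone, log2(FPKM + 1) and log2(FPKM + 0.1) moved the median of all genes to 0.0617, 0.0425 and 0.0594, against -0.0018 as reported. Some member signs turned under these settings, and whether they follow this shift of all genes was not tested. Those log2 fold changes were 0.0113, 0.0092 and 0.0105 for ATF3, 0.0502, 0.0490 and 0.0493 for DDIT4, 0.0562, 0.0484 and 0.0535 for STC2, 0.0431, 0.0081 and 0.0323 for ASNS, 0.0336, 0.0305 and 0.0330 for PCK2 and 0.0407, 0.0448 and 0.0449 for SLC7A5. Signs also turned with the length trend removed, at 0.0103 for CEBPB, -0.0411 for EIF2AK3, -0.0649 for EIF2AK4 and 0.0965 for DDIT4. With one library left out, the log2 fold change ran for EIF2AK4 from -0.0087 to 0.0760, DDIT4 from -0.1078 to 0.0569, VLDLR from -0.0476 to 0.3004, STC2 from -0.0654 to 0.0563, ASNS from -0.0784 to 0.0464 and SLC7A5 from -0.1070 to 0.0504. The cause of the turns with a library left out was not tested. Low counts limit what can be said of ASNS, ALDH1L2, VLDLR and NUPR1.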
